A study of Caenorhabditis elegans with 2 samples.

Results

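Transthyretin-like (ttr) genes encode a large nematode family of short secreted proteins. They were taken from the deposited gene table by symbol, as every row named ttr followed by a number, and 58 of 21163 gene rows met the rule. RNA sequencing had been run on whole worms of the Caenorhabditis elegans wild-type strain N2, all at day 5. The EA group received 100 µM ellagic acid, a plant polyphenol, in the bacterial food Escherichia coli OP50, and the control group received the vehicle. Per the labels' protocols the working solutions held 0.2% dimethyl sulfoxide. Each group has 1 library, so differences between the groups have no replicate check and were not tested. Every interval covers counting error only.

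The family is named after transthyretin, the vertebrate plasma protein that carries thyroid hormone and retinol-binding protein. Nematode members share the fold but are a separate expanded family, and most have no described function. ttr-52 is an exception: its secreted product bridges phosphatidylserine on dying cells and the engulfment receptor CED-1. ttr-33 is known in the worm for protecting dopaminergic neurons from oxidative stress. In the deposited annotation 57 of the 58 members carried the Pfam transthyretin-like family domain and 57 were placed at the cell surface. ttr-57, which had no count in either library, lacked the domain, and ttr-42 lacked the cell surface term.

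The genes were small and scattered over the genome. From the Ensembl annotation of build WBcel235 the predicted proteins had a median of 143 amino acids, with an interquartile range of 139 to 149.75. ttr-14 stood apart at 406 amino acids. There were 22 members on chromosome V, 12 on X, 10 on IV, 9 on III, 3 on I and 2 on II. Of the 58 members 29 lay within 10 kb of another member, in 12 clusters of 2 or 3 genes. Sequences of the members were not analysed here, so whether neighbours share reads was not tested.

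The EA library held 39421614 counts and the control library 41840364 counts. Counts were scaled to library size (CPM), and a member counted as measured at a mean of at least 1 CPM over both libraries. By this filter 47 members were measured, and all 47 also reached 1 CPM in each library taken alone. The 11 others are given by their counts at the end. Among markers of tissues, the 6 neuron genes were all lower with EA, with a summed level of 678 CPM in EA and 757 CPM in control. The 4 pharynx genes were all lower too, at 248 CPM in EA and 306 CPM in control. The 4 body wall muscle genes summed to 1011 CPM in EA and 992 CPM in control. Of the 6 intestine genes 3 were higher, and their sum was 18991 CPM in EA and 15816 CPM in control, most of it from the yolk protein genes vit-2 and vit-6. Of the 5 oocyte genes 4 were higher, with a sum of 1296 CPM in EA and 1085 CPM in control. The 4 germline genes were all higher, at 645 CPM in EA and 558 CPM in control, and the 6 sperm genes summed to 39.0 CPM in EA and 24.97 CPM in control. Among the sperm genes spe-9 was lower, at 0.827 CPM in EA and 1.04 CPM in control, and the others were higher. The 3 matched genes of glia and sheath cells summed to 44.0 CPM in EA and 62.4 CPM in control. Of these vap-1 and fig-1 were lower, and ptr-10 had 13.3 CPM in EA and 13.0 CPM in control. The 4 genes of the uterus and spermatheca summed to 173 CPM in EA and 176 CPM in control. Among hypodermis genes the adult collagen col-19 had 477 CPM in EA and 494 CPM in control. lin-26 went the other way, at 85.1 CPM in EA and 68.6 CPM in control. dpy-7, rol-6 and bli-1 were under 1 CPM in both. The 5 hypodermis genes summed to 563 CPM in EA and 564 CPM in control. In whole animals fewer cells of a type and less RNA per cell cannot be told apart. The part of tissue makeup in the ttr values was not tested.

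Levels within the family differed far more between members than between the groups. On the FPKM scale, which the authors deposited and which divides by transcript length, the measured members had a median level of 39.1 FPKM in EA and 55.1 FPKM in control. In EA 11 members reached 100 FPKM, against 16 in control. The highest mean level was 606 times the lowest. The most abundant gene, ttr-51, had 1343 FPKM in EA and 1782 FPKM in control. It was followed by ttr-15 with 761 FPKM in EA and 1180 FPKM in control, and by ttr-2 with 603 FPKM in EA and 1010 FPKM in control. These 3 genes held 43.0% of all ttr counts in EA and 44.7% in control. The next in order of level were ttr-46, ttr-16, ttr-18, ttr-6 and ttr-47, and each of these was also lower in EA than in control.

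**Figure D1:**
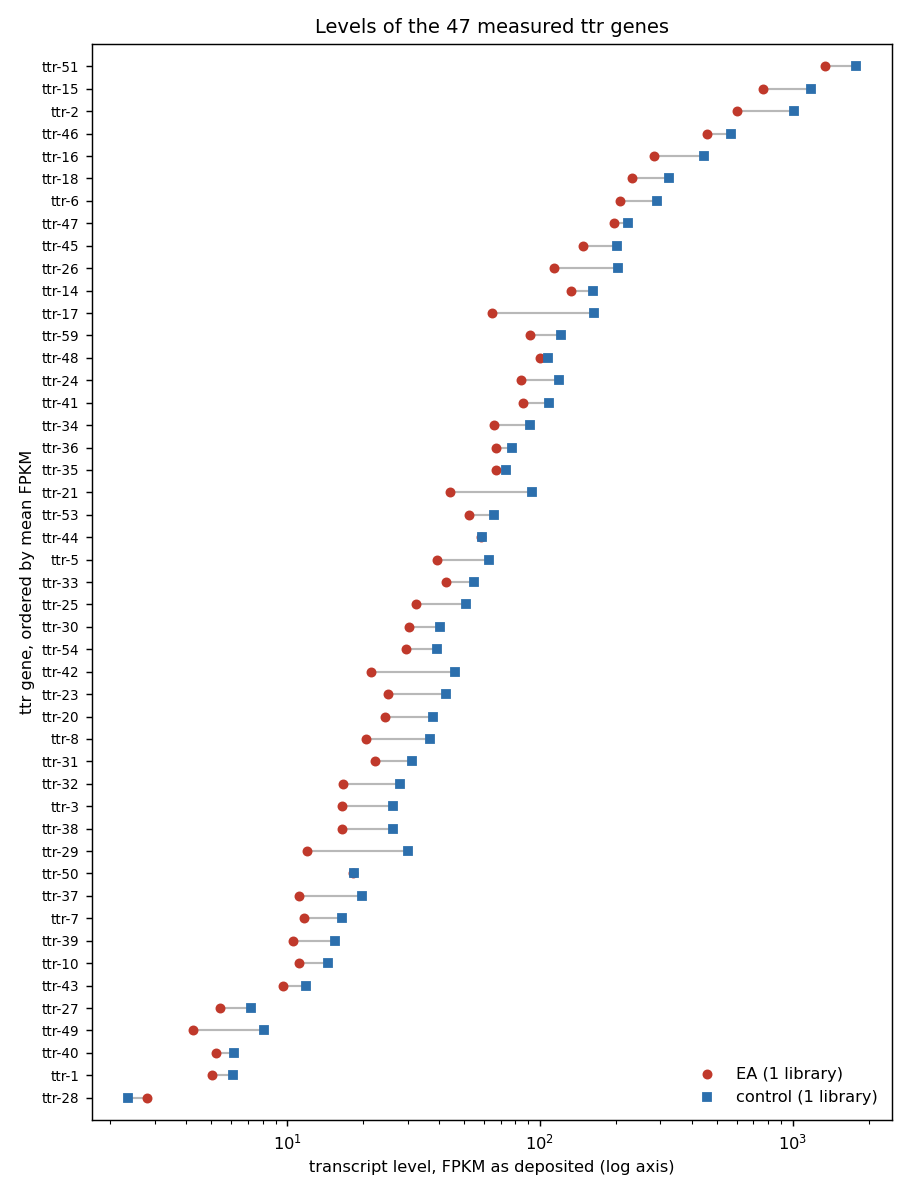
Transcript level of the 47 measured ttr genes in FPKM (log axis), 1 row per gene ordered by mean level. Circles are the EA library, squares the control library, and grey lines join them. The EA circle lies left of the control square in 46 rows, nearly under it for ttr-44 and ttr-50, and right of it for ttr-28 at the bottom.

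Nearly the whole measured family was lower with EA. The log2 ratio of EA to control was below 0 for 46 of 47 members, against 50.3% of the 14221 genes measured. The median ratio was -0.55 on the log2 scale, with an interquartile range of -0.75 to -0.39, while the median over all measured genes was 0.00 (-0.0019). For 42 members the 95% counting interval lay wholly below 0, for 0 it lay above, and for 5 it held 0. Those 5 were ttr-1, ttr-40, ttr-50, ttr-44 and ttr-28. Over all 14221 measured genes the interval lay wholly below 0 for 4579 and wholly above for 4538. Summed over all 58 members, ttr transcripts took 0.340% of the EA counts (exact binomial 95% interval 0.338% to 0.342%) and 0.492% of the control counts (0.490% to 0.494%). Without the 3 genes with most counts the sum had a log2 ratio of -0.52, against -0.57 for all members.

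Most members were lower by less than 2-fold. At least 2-fold lower, with an interval excluding 1, were 4 of the 47 and 0 were higher, beside shares of 3.52% lower and 2.03% higher over all measured genes. At least 1.5-fold lower were 19 of the 47 and 0 were higher, beside 10.6% lower and 5.86% higher over all measured genes. The authors' deposited table called down 5 members and up 0, and it called down 3.52% of the 14692 genes with a value. Its 5 were ttr-17, ttr-29, ttr-42, ttr-21 and ttr-49, the last with a log2 ratio of -0.995 in the counts and a mean of 4.32 CPM. The sources used here do not say how the spread behind that call was set from 1 library per group.

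**Figure D2:**
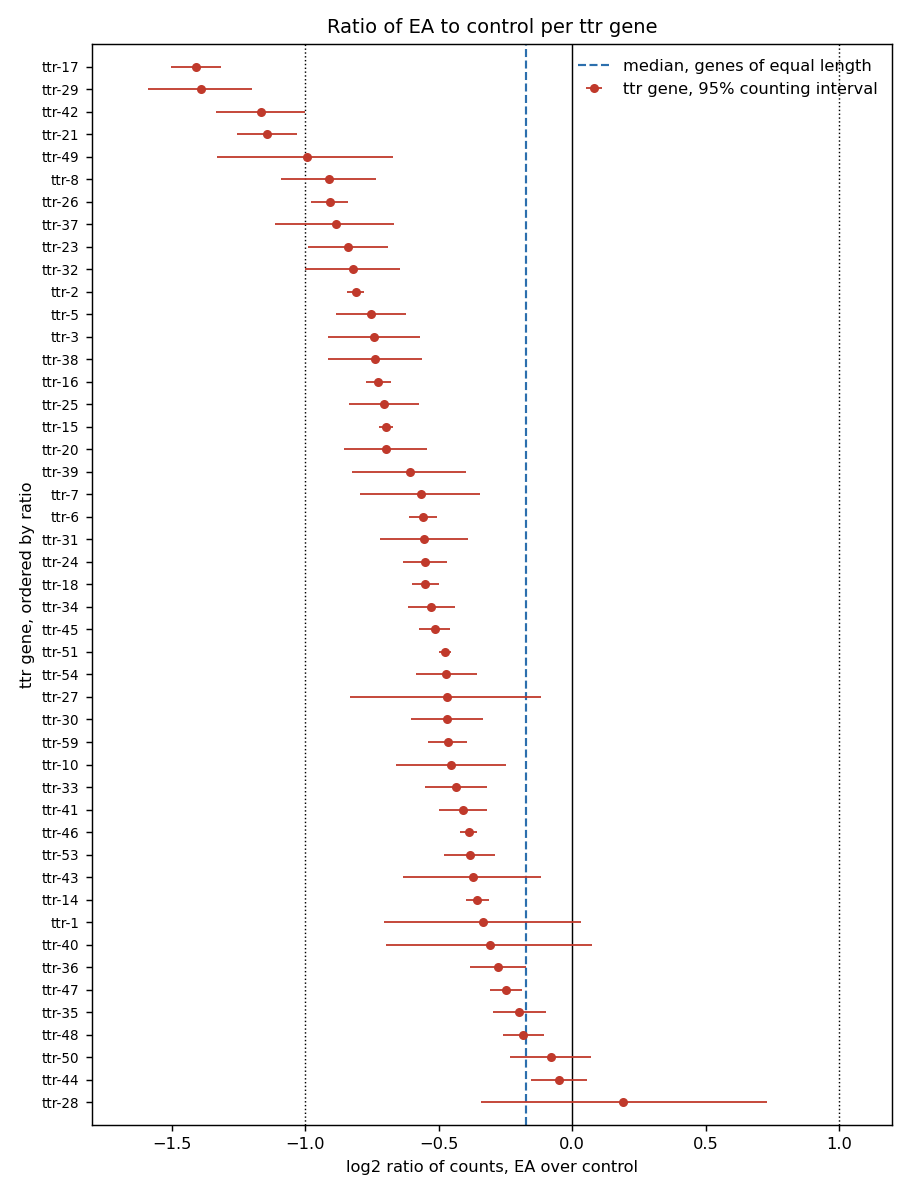
log2 ratio of EA to control for each measured ttr gene with its 95% counting interval, ordered from the lowest at the top. The dotted lines mark 2-fold, and the dashed line is the median of genes of equal length, at -0.17. Points run from -1.41 for ttr-17 to 0.19 for ttr-28.

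The 4 genes past 2-fold lie on chromosomes IV, V and X. ttr-17 (chromosome IV, 11066019 to 11067026, build WBcel235, minus strand) had 1215 counts in EA and 3344 in control. That is 30.4 CPM in EA and 80.9 CPM in control, 2.66-fold lower (95% counting interval 2.49 to 2.84). ttr-29 (chromosome V, 12906128 to 12906832, minus strand) had 298 counts in EA and 811 in control and was 2.62-fold lower (2.30 to 3.01). ttr-42 (chromosome X, 2577742 to 2578262, plus strand) had 422 counts in EA and 982 in control, 2.25-fold lower (2.00 to 2.52). ttr-21 (chromosome V, 13853834 to 13854405, minus strand) had 944 counts in EA and 2160 in control, 2.21-fold lower (2.05 to 2.39). Of these 4 genes only ttr-21 carried a process in the deposited annotation, the defense response to Gram-negative bacteria. Among members averaging at least 10 CPM, the next in order were ttr-8 with a log2 ratio of -0.91, ttr-26 with -0.91, ttr-23 with -0.84 and ttr-32 with -0.82. Of these, ttr-26 was the best counted, at 2586 counts in EA and 5030 in control.

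The abundant members were lower by moderate amounts that the counts resolve closely. ttr-2 had 12219 counts in EA and 22223 in control, 1.76-fold lower (1.72 to 1.80). ttr-15 had 18951 counts in EA and 31864 in control, 1.62-fold lower (1.59 to 1.65). ttr-51 had 26400 counts in EA and 38023 in control, 1.39-fold lower (1.37 to 1.41). The intervals of these 3 ratios do not overlap, so within these libraries the most abundant members were lower by unequal amounts. ttr-16 was 1.65-fold lower (1.60 to 1.71), ttr-6 1.47-fold lower (1.42 to 1.53), ttr-18 1.46-fold lower (1.41 to 1.52) and ttr-46 1.31-fold lower (1.28 to 1.34). Pearson's r was -0.04 and Spearman's rho 0.05 between the log2 ratio and the log2 mean CPM over the 47 members of this pair of libraries.

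The members nearest to no difference included well counted genes. ttr-44 had 1444 counts in EA and 1549 in control, a log2 ratio of -0.05 (95% counting interval -0.15 to 0.05). ttr-50 had 682 counts in EA and 747 in control, a log2 ratio of -0.08 (-0.23 to 0.07). ttr-48 had -0.18, ttr-35 had -0.20, ttr-47 had -0.25, ttr-36 had -0.28, ttr-14 had -0.36 and ttr-53 had -0.38. ttr-33 (chromosome V, 7837093 to 7837909), known for protecting dopaminergic neurons, had 1025 counts in EA and 1437 in control. In FPKM it had 42.6 in EA and 55.1 in control. Its log2 ratio of -0.44 (-0.55 to -0.32) lay near the middle of the family. The single measured member above 0, ttr-28, was also the least abundant, with 64 counts in EA and 58 in control and an interval from -0.34 to 0.73.

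Short transcripts as a class were lower in the EA library, so the family was set beside genes of equal length. The measured members had a median transcript length of 575 nucleotides, against 1399 for the other measured genes. Over non-members the median log2 ratio was -0.59 for transcripts of up to 400 nucleotides, -0.29 above 400 and up to 600, -0.12 above 600 and up to 800, and 0.02 above 1200 and up to 2000. The 1362 non-members between the 10th and the 90th percentile of the members' lengths (477.8 to 728.4 nucleotides) had a median of -0.17. Of these genes 70.8% were below 0, 6.31% were at least 2-fold lower and 18.8% were at least 1.5-fold lower. The corresponding ttr shares were 97.9%, 8.51% and 40.4%. At a mean of at least 10 CPM, equal-length genes had a median of -0.16 and the 38 ttr members one of -0.55. What the length trend in these libraries comes from was not tested.

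Taken gene by gene, 41 of 47 members were below the median of the non-members within 10% of their own length, and the median difference was -0.37. When these non-members were also held to within 2-fold of the member's level, 42 of 47 were below and the median difference was -0.38. That second comparison was chosen after seeing the data, and for the most abundant members it rests on few genes (12 for ttr-51 and for ttr-2). ttr-17 had a ratio below those of 96.1% of the 412 genes of its length, and ttr-29 below 99.3% of 668. ttr-51 was only 0.17 below the median of its length class on the log2 scale. With a smooth trend on length removed, the family median was -0.35 and 40 of 47 members were below 0. So were 48.3% of all measured genes of known length and 44.5% of the equal-length genes. At least 2-fold lower were 2 members (ttr-17 and ttr-29), and 9 were at least 1.5-fold lower. The matching shares over all genes were 3.52% and 10.6% before removal and were not computed after it. The long member ttr-14, at 1415 nucleotides, had -0.36 with and without the trend.

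**Figure D3:**
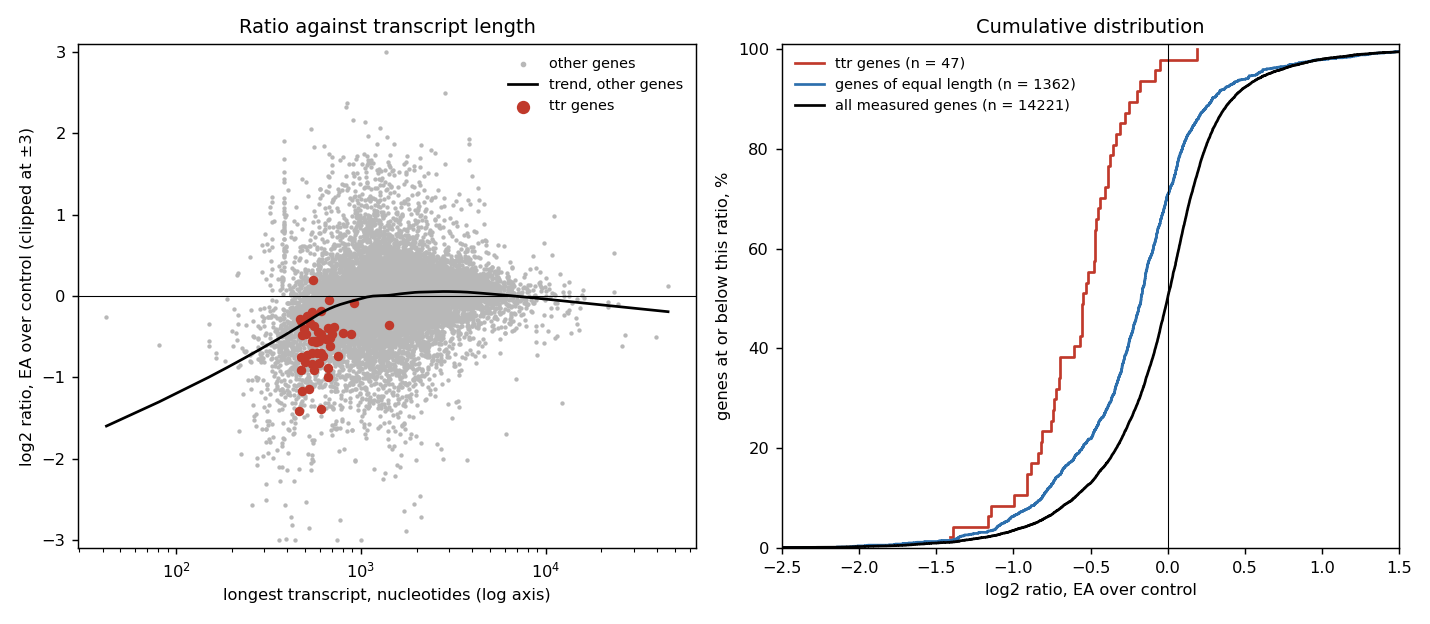
Left, log2 ratio of EA to control against transcript length for ttr genes (large points) and other measured genes (small points, clipped at ±3), with the trend of the other genes as a line. Right, cumulative share of genes by log2 ratio. The ttr curve lies left of genes of equal length for most of its course, with medians of -0.55 and -0.17, against 0.00 for all measured genes.

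Median ratios differed with the Swiss-Prot entry that the deposited table gives as each member's match. Every group by entry had a median below 0. The 15 measured members matched to ttr-5 had a median log2 ratio of -0.70 and ran from -1.39 to 0.19. Of these 15, 9 were at least 1.5-fold lower, beside 10.6% of all measured genes and 18.8% of the equal-length genes. The 8 matched to ttr-46, which include the abundant ttr-51 and ttr-46, had a median of -0.40 and 0 at that limit. Their range of -0.52 to -0.05 lay within that of the ttr-5 matches, and a difference between these groups was not tested. The median level was 14.3 CPM for the ttr-5 matches and 95.1 CPM for the ttr-46 matches. The 5 matched to ttr-33 had a median of -0.44 and the 8 matched to other ttr entries one of -0.71. The 11 with no entry named ttr had one of -0.47. With the length trend removed the medians were -0.42 for the ttr-5 matches and -0.12 for the ttr-46 matches. By chromosome the medians ran from -0.75 for 8 members on III to -0.46 for 16 on V.

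Neighbouring members were in part alike and in part far apart. There were 10 clusters with at least 2 measured members. ttr-59 and ttr-30, side by side on chromosome X (7329818 to 7331839), had log2 ratios of -0.468 and -0.469. ttr-51 and ttr-45 on chromosome IV (13250655 to 13255538) differed by 0.04 and ttr-36 with ttr-35 on X by 0.08. In contrast ttr-16 and ttr-17 on IV (11063530 to 11067026) differed by 0.68, and ttr-27, ttr-28 and ttr-29 on V (12903550 to 12906832) spanned 1.58. The 24 measured members with no neighbour within 10 kb had a median of -0.55, and all 24 were below 0. The sources used here do not say if counting was strand-specific, and 13 measured members overlap an exon of another gene, whose reads cannot then be told apart. ttr-16 overlaps the epidermal growth factor gene lin-3 on the other strand by 209 nucleotides. ttr-42 overlaps H01M10.1, which had a log2 ratio of -0.52, by 52 nucleotides. Among the members nearest to no difference, ttr-44 overlaps R11G10.3, which had a log2 ratio of -0.72, by 167 nucleotides. ttr-50, ttr-47 and ttr-14 overlap another gene as well. ttr-33 overlaps txt-5, which had a log2 ratio of -0.51, by 42 nucleotides on the same strand. The 34 members with no such overlap had a median of -0.55, with 33 below 0.

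**Figure D4:**
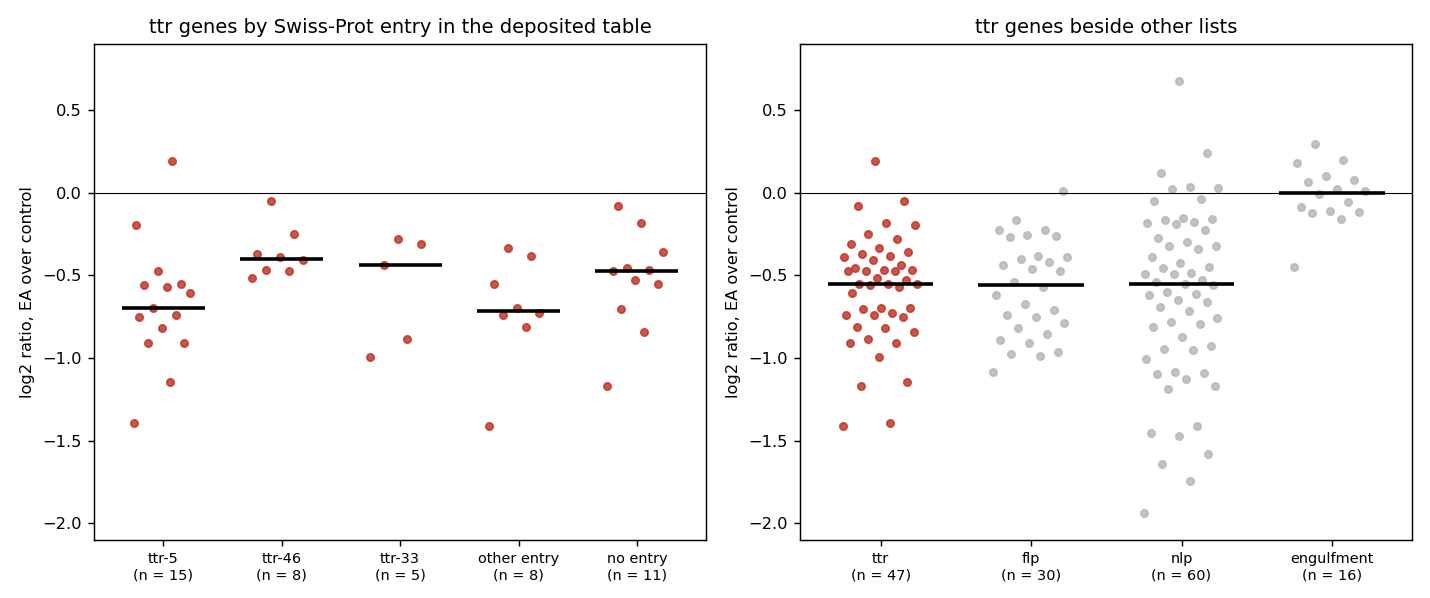
log2 ratio of EA to control, 1 point per gene, with the median as a bar. Left, measured ttr genes by the Swiss-Prot entry they match, with medians of -0.70 for ttr-5 and -0.40 for ttr-46. Genes under no entry have no entry named ttr. Right, ttr genes beside the flp and nlp neuropeptide genes, whose medians are all near -0.55, and engulfment genes, whose median is 0.00. The engulfment transcripts are longer, with a median of 2014 nucleotides against 575 for ttr.

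Genes of 2 other families of short secreted proteins had medians close to that of the ttr genes. The FMRFamide-like peptide genes (flp), which encode neuropeptides, had 29 of 30 measured members below 0, 1 at least 2-fold lower and 14 at least 1.5-fold lower, with a median of -0.56. The neuropeptide-like protein genes (nlp) had 54 of 60 below 0, 14 at least 2-fold lower and 29 at least 1.5-fold lower, with a median of -0.55 and a wider range of -1.94 to 0.68. As shares, 3.33% of flp and 23.3% of nlp members passed the 2-fold limit, beside 3.52% of all genes and 6.31% of equal-length genes. The 1.5-fold limit was passed by 46.7% of flp and 48.3% of nlp members, beside 10.6% and 18.8% in those backgrounds. At least 1.5-fold higher were 0 flp genes and 1 nlp gene, beside 5.86% over all measured genes. With the length trend removed the medians were -0.35 for ttr, -0.34 for flp and -0.37 for nlp. The neuron markers, which are longer genes, had a median of -0.24. A difference between these families was not tested.

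Genes of cell corpse recognition and engulfment, the process in which ttr-52 acts, had a median ratio near that of all measured genes. ttr-52 itself had 6 counts in EA and 9 in control, too few to compare. Of 16 further genes of this list, 0 were past 2-fold in either direction, beside 3.52% lower and 2.03% higher over all measured genes. The log2 ratio was below 0 for 8 of the 16, against 50.3% of all measured genes, and the median over the 16 was 0.00 (-0.0009). Their transcripts had a median length of 2014 nucleotides, against 575 for the measured ttr genes. The receptor gene ced-1 had 89.1 CPM in EA and 99.4 CPM in control, a log2 ratio of -0.16. nrf-5, which encodes a secreted lipid-binding protein of the same pathway, had -0.11, and the ABC transporter gene ced-7 had -0.05. The lowest was crt-1, which encodes the chaperone calreticulin, at -0.45.

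Transthyretin-like genes outside the name rule were few. The table gave the transthyretin-like domain to 6 further rows, of which F38A5.22 and Y77E11A.23 were measured. F38A5.22 (chromosome IV, 6595476 to 6595940) had 294 counts in EA and 619 in control, 2.03-fold lower (1.77 to 2.34). Y77E11A.23 had 233 counts in EA and 261 in control. Under 1 CPM, F26G1.11 had 6 counts in EA and 30 in control, 4.53-fold lower (1.98 to 14.2). nlp-4, which by name also belongs to the nlp genes, was under 1 CPM too, with 36 counts in EA and 23 in control. C27D9.2 and F26G1.3 had no count in either library. R09H10.3, annotated as a probable 5-hydroxyisourate hydrolase, an enzyme of urate breakdown related to transthyretin, had 996 counts in EA and 1279 in control, a log2 ratio of -0.31. The second such gene, ZK697.8, had no count in either library.

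The 11 members under 1 CPM were ttr-9, ttr-11, ttr-12, ttr-13, ttr-19, ttr-22, ttr-52, ttr-55, ttr-56, ttr-57 and ttr-58. Of these 6 lie on chromosome V, 3 on I and 2 elsewhere. Together they had 93 counts in EA and 86 in control, a ratio of 1.12 with an interval that held 1 (0.826 to 1.52). That interval lay above the ratio of the sum over all 58 members, which was 1.48-fold lower. With no filter, 51 of the 57 members with a count had a ratio below 1. ttr-12 had 31 counts in EA and 10 in control, 3.11-fold higher (1.53 to 7.34), and its neighbour ttr-11 had 14 counts in EA and 5 in control, 2.73-fold higher with an interval that held 1 (0.987 to 10.29). ttr-22 had 0 counts in EA and 17 in control.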

How the data were processed

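RNA from 1 EA library and 1 control library was compared. The authors deposited raw counts per gene, FPKM, and their own log2 ratio and false discovery rate (an adjusted p-value) per gene. Per the labels' protocols, 1 µg of RNA entered a NEBNext Ultra library, reads were set against WBcel235 and FPKM was the measure of expression. The submitters' processing notes name edgeR. The sources used here do not name the aligner or the counter, nor the use of strand.

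The deposited counts were scaled with TMM library sizes (edgeR 4.0.16, R 4.3.3), with factors of 1.01 for EA and 0.988 for control. Ratios of EA to control had 0.5 added to each count. The 95% interval is the exact conditional binomial (Clopper-Pearson) one, with a median half-width of 0.12 (log2) over the measured members. The limit of a count of 0 is 0.0752 CPM in EA and 0.0726 CPM in control, the level of 3 counts. No p-value was computed.

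Positions came from the RefSeq table of WBcel235, which matched 19979 rows. Lengths are the longest transcript in Ensembl release 115, known for 13790 of 14221 measured rows. The length trend is a lowess fit (span 0.3, statsmodels 0.14.6) over non-members. The steps were tested on simulated data.

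Genes named are the members past 2-fold at 5 CPM or more, the 8 highest and 8 lowest ratios at 10 CPM or more, the 8 highest in FPKM, ttr-52, ttr-11 and ttr-33, and members under 1 CPM or next to each other. The members and lists were chosen with earlier results of these data known. ttr-28, ttr-49, the members whose interval holds 0, the further genes named beside them, and the grouping by Swiss-Prot entry were chosen after their values were seen.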

Additional observations from a re-analysis of the deposited data

How the results depend on the processing

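The lower level of the family kept its direction under every scaling tried. The median log2 ratio lay between -0.55 and -0.48 with total counts, DESeq2 1.42.0 size factors, the authors' FPKM, 2 added to each count, minimums of 5 and 10 CPM or no filter. With the length trend removed it was -0.35, with the trend taken from genes at 5 CPM or more -0.36, and as a difference from genes of the same length and level -0.38. Under both trends 2 members were at least 2-fold lower and 9 at least 1.5-fold lower, and the matching shares over all genes were not computed. With no filter 1 member, ttr-12, was at least 2-fold higher and also the 1 at least 1.5-fold higher. Without members near another member 2 of 24 were at least 2-fold lower, 9 at least 1.5-fold lower and 24 below 0, from fewer genes. The summed log2 ratio was -0.53 with total counts, -0.52 with FPKM, -0.62 without members that overlap another gene and -0.52 without neighbours, against -0.57. Of 24 named genes, 5 changed sign when the trend was removed: ttr-36 to 0.087 and, with the trend of genes at 5 CPM or more, 0.073, ttr-47 to 0.067 and 0.055, ttr-35 to 0.073 and 0.062, ttr-48 to 0.022 and 0.012, and ttr-44, whose interval held 0, to 0.11 and 0.10. No paired analysis was possible because each group has 1 library, and no replicate could be left out. The alternative without members at 80% protein identity was not run and motifs in promoters were not counted, since sequences were not used here. Depth limits the single ratios of the 11 members under 1 CPM.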

Other observations

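There were 50 families of numbered symbols with at least 20 measured members. Among these the 3 lowest median log2 ratios were those of flp at -0.56, nlp at -0.55 and ttr at -0.55. The receptor guanylate cyclase genes (gcy), many of which act in sensory neurons, came next at -0.34. Their transcripts are long, with a median of 3369 nucleotides. With the length trend removed they were the lowest at -0.39, followed by nlp at -0.37, ttr at -0.35 and flp at -0.34. Of the 50 families ttr had the highest share of members below 0, at 97.9%, with flp next at 96.7%. With the length trend removed these shares were 85.1% for ttr and 86.7% for flp. The families were compared after seeing the data, and the order is a description of these 2 libraries.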
